A study of Mus musculus with 4 samples.

Results

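The genes described here encode the enzymes of mitochondrial fatty acid oxidation (13 genes), of the tricarboxylic acid (TCA) cycle (13 genes), and of the steps that bring pyruvate into the cycle (4 genes). They were taken by gene symbol from the textbook membership of these pathways, and all 30 were found among the 23444 genes of the deposited table. RNA was sequenced from EpCAM-positive cells, which are epithelial cells carrying that surface protein, sorted from lungs of mouse embryos at E18.5, close to birth. KO libraries came from embryos with a conditional knockout of Emc3 in lung epithelium, and WT libraries came from wild-type embryos (n = 2 libraries each). Emc3 encodes a core subunit of a complex that inserts membrane proteins into the endoplasmic reticulum. No source used here gives the Cre driver or the control alleles, or tells whether the 2 libraries of a group came from separate embryos, so the p-values reflect the spread among these libraries, which may be technical. The column headings name 2 mutant libraries, here KO 27 and KO 35, and 2 control libraries, here WT 27 and WT 35. By the sample titles, KO 27 would be wild-type and WT 35 a knockout, so the labels conflict for 2 of the 4 libraries, and every direction here follows the headings. Each group of the titles mixes a KO and a WT library of the headings. A contrast of those groups thus does not measure the difference between KO and WT as headed.

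Fatty acid oxidation shortens fatty acids inside mitochondria by repeated rounds of dehydrogenation, hydration, a second dehydrogenation and thiolytic cleavage, each round releasing acetyl-CoA. The carnitine shuttle carries long chains across the mitochondrial membranes, and electrons from the first step pass through the electron transfer flavoprotein to the respiratory chain. The TCA cycle takes in acetyl-CoA from fatty acids or from pyruvate, oxidises it and hands the electrons on, while its citrate can also leave the mitochondrion for lipid synthesis. In the lung before birth, alveolar type 2 cells make large amounts of surfactant lipid, which is built from fatty acids.

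Levels are given in RPKM as the authors deposited them, a read count scaled to the length of the gene and to the size of the library, so that levels can be compared between genes. Emc3, at chr6:113514887-113531638 (GRCm38), had 2.28 RPKM in KO 27 and 2.33 RPKM in KO 35, against 14.2 RPKM in WT 27 and 17.99 RPKM in WT 35. Its mean was 2.30 ± 0.0350 RPKM in KO and 16.1 ± 2.66 RPKM in WT (SD, n = 2 each), and the log2 fold change on log2(RPKM + 1) was -2.36 (limma, adjusted p = 0.0242), which goes with the headings and not with the titles. Summed marker levels were 488 to 506 RPKM in KO and 466 to 491 RPKM in WT for 5 epithelial genes, and 9382 to 9495 RPKM in KO and 8057 to 12112 RPKM in WT for 5 alveolar type 2 genes. Both KO libraries were higher than both WT libraries for 3 of the 5 epithelial genes. For the alveolar type 2 genes, both were lower for 1 of 5. Immune markers summed to 15.1 to 17.1 RPKM in KO and 4.76 to 6.51 RPKM in WT, with 6 of 6 higher in both KO libraries than in both WT libraries. Ciliated cell markers summed to 70.5 to 70.6 RPKM in KO and 107 to 167 RPKM in WT, with 5 of 5 lower in both KO libraries, against 16.3% of all tested genes. Club cell markers summed to 1729 and 2889 RPKM in KO and 2807 and 10016 RPKM in WT, with 2 of 3 lower in both KO libraries. Heart muscle markers, which would come with muscle rich in these enzymes, summed to 3.10 to 5.35 RPKM in KO and 4.04 to 4.90 RPKM in WT, with 1 of 5 lower in both KO libraries. The part of these cell types in the results was not tested, and in sorted bulk RNA fewer cells of a type and less RNA per cell cannot be told apart.

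None of the 29 members that could be tested passed an adjusted p of 0.05 in limma's fit across all genes, where the background was 0.0691% (7 of 10128 tested genes). The tested genes had at least 1 RPKM in at least 2 libraries, and the 29 members reached 1 RPKM in every library. The remaining member, Acads, was below 1 RPKM in all 4. At an unadjusted p under 0.05, 1 member (Acaa2) was lower in KO and 0 were higher, against 13.8% of all tested genes in either direction and 5.68% in the lower direction. Log2 fold changes of the 29 members, KO minus WT on log2(RPKM + 1), ran from -0.51 to 0.17 with a median of 0.01, and 15 were positive and 14 negative. Over all tested genes the median was 0.06. The median size of the change, without its sign, was 0.11 for the members, 0.17 for all tested genes and 0.17 for the 7184 tested genes within the members' range of mean RPKM (2.07 to 33.8).

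The fit limits how large a difference these libraries leave room for. The 95% intervals of all 29 members lay between -0.89 and 0.61, within a 2-fold change in either direction on this scale, and 87.6% of all tested genes had intervals that narrow. For 19 of 29 members the interval lay within ±0.5 on the log2 scale, against 30.5% of all tested genes. Those 19 were 5 of 12 fatty acid oxidation genes, 11 of 13 TCA cycle genes and 3 of 4 pyruvate entry genes. In 24 of the 30 members the larger of the KO and WT gaps between the 2 libraries of a group exceeded the difference between the group means. The share of all tested genes with such a gap was not computed, so this count does not set the members apart.

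**Figure D1:**
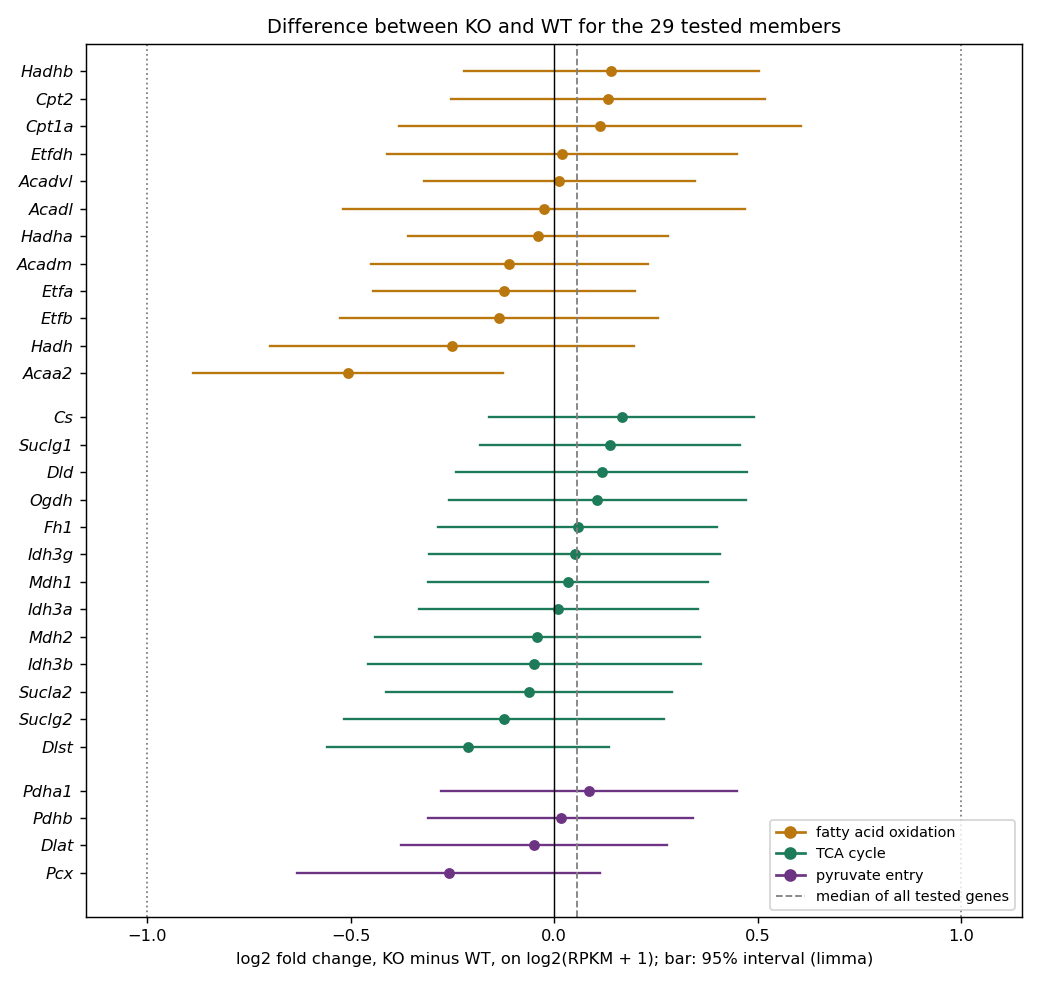
Log2 fold change (KO minus WT, on log2(RPKM + 1), x axis) of the 29 tested members, grouped by pathway, with points for the estimate and bars for limma's 95% interval. The dashed line is the median of all tested genes (0.06), the dotted lines mark a 2-fold change, and Acaa2 at -0.51 is the member whose bar does not cross 0.

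The level of each gene ordered the members far more than the genotype did. Mdh2, the mitochondrial malate dehydrogenase, had the highest mean over the 4 libraries at 33.8 RPKM, followed by Pdhb at 28.4, Idh3b at 25.8, Cs at 23.1, Idh3g at 22.2 and Acaa2 at 19.8 RPKM. The lowest were Cpt2 at 3.69, Pcx at 2.58, Idh3a at 2.07 and Acads at 0.428 RPKM. Mdh2 stood at percentile 94.8 and Idh3a at percentile 23.8 of the tested genes. Cs and Idh3g, neighbours in this order, overlapped between libraries, whereas Mdh2 and Pdhb, also neighbours, did not. Mdh2 and Idh3a, the highest and lowest of the tested members, did not overlap either.

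**Figure D2:**
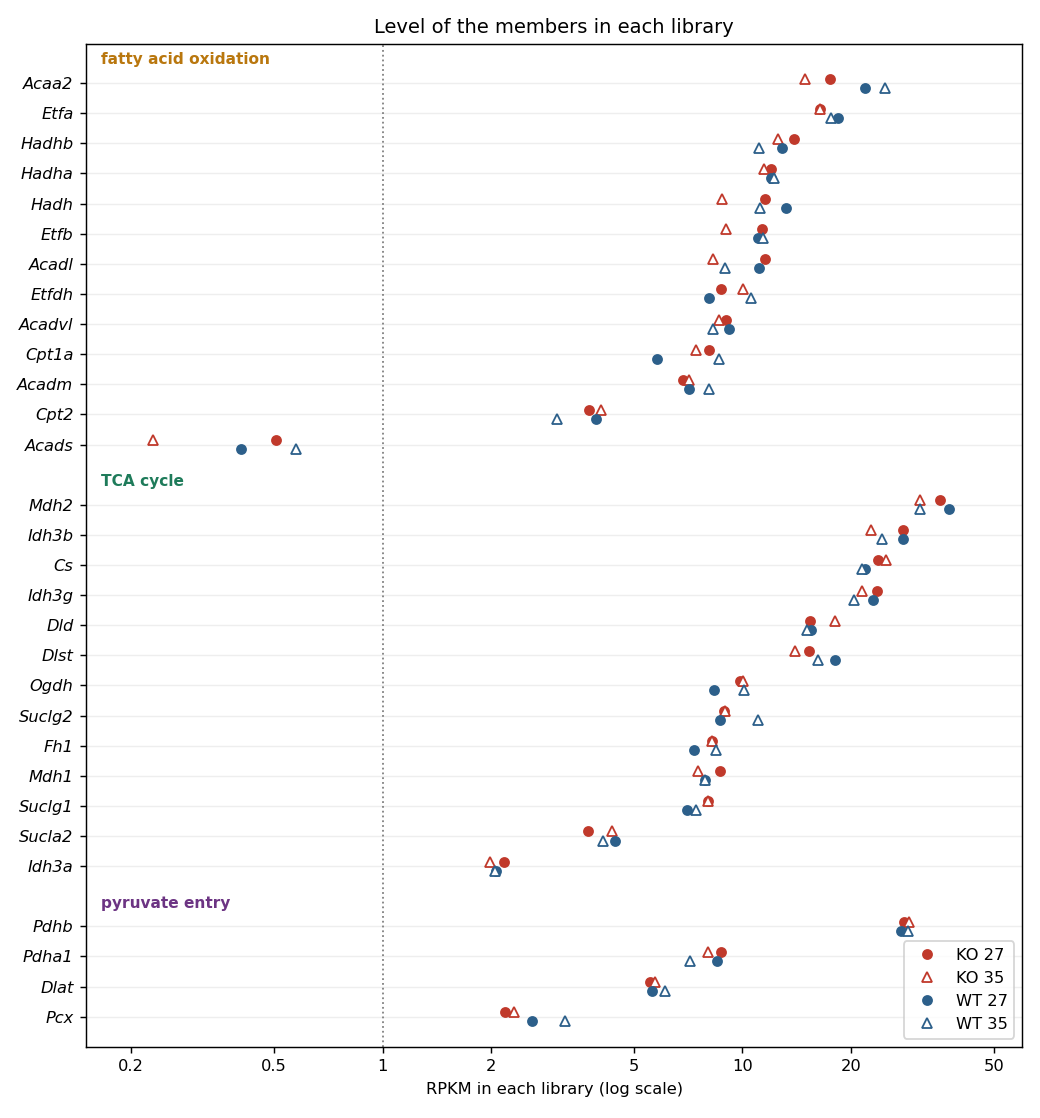
RPKM (x axis, log scale) of the 30 members in each of the 4 libraries, with KO in red and WT in blue, circles for the libraries numbered 27 and triangles for those numbered 35. The points of a gene lie close together for most members, Acaa2 has both KO points left of both WT points, and Acads lies left of the dotted line at 1 RPKM.

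Among the fatty acid oxidation genes, the lower KO level of Acaa2 was the largest difference, and it did not pass the adjusted threshold. Acaa2 encodes the mitochondrial 3-ketoacyl-CoA thiolase, which carries out the cleavage that ends a round of oxidation. It had 17.5 RPKM in KO 27 and 14.9 RPKM in KO 35, against 21.9 RPKM in WT 27 and 24.9 RPKM in WT 35. Both KO libraries lay below both WT libraries. The means were 16.2 ± 1.82 RPKM in KO and 23.4 ± 2.16 RPKM in WT (SD, n = 2 each), a ratio of 0.692, and the log2 fold change was -0.51 with a 95% interval of -0.89 to -0.13 (limma, unadjusted p = 0.0178, adjusted p = 0.261). With the libraries grouped by the sample titles, which mixes KO and WT as headed, it was -0.02.

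Hadh encodes the dehydrogenase for medium and short 3-hydroxyacyl chains. It had 11.5 and 8.75 RPKM in KO, against 13.2 and 11.2 RPKM in WT, and the groups overlapped, since KO 27 lay above WT 35. Its log2 fold change was -0.25 with a 95% interval of -0.70 to 0.20 (limma, adjusted p = 0.611).

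The electron transfer genes had log2 fold changes between -0.14 and 0.02. Etfa and Etfb encode the subunits of the electron transfer flavoprotein, and Etfdh encodes the oxidoreductase that takes its electrons to ubiquinone. Etfa had 16.4 and 16.5 RPKM in KO, against 18.4 and 17.6 RPKM in WT, with no overlap and a log2 fold change of -0.12 (95% interval -0.44 to 0.20; limma, adjusted p = 0.732). Etfb had 11.4 and 8.99 RPKM in KO, against 11.0 and 11.4 RPKM in WT, and KO 35 alone was low (log2 fold change -0.14; limma, adjusted p = 0.759). Etfdh overlapped, with a log2 fold change of 0.02.

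The carnitine shuttle genes showed no separation of the groups. Cpt1a encodes the liver-type enzyme that joins fatty acids to carnitine at the outer membrane and is the regulated entry step. It had 8.07 and 7.41 RPKM in KO, against 5.79 and 8.62 RPKM in WT, so both KO values lay between the WT values. The log2 fold change was 0.11 with a 95% interval of -0.38 to 0.61 (limma, adjusted p = 0.851), the highest upper bound of any member. Cpt2, which returns the fatty acid to CoA at the inner membrane, had 3.75 and 4.04 RPKM in KO, against 3.91 and 3.05 RPKM in WT (log2 fold change 0.13; limma, adjusted p = 0.762).

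The acyl-CoA dehydrogenases take the first step, and each prefers a chain length. Acadm, for medium chains, had 6.83 and 7.10 RPKM in KO, against 7.12 and 8.10 RPKM in WT, and the groups were separated by a gap smaller than the one between the WT libraries (log2 fold change -0.11; limma, adjusted p = 0.775). Acadl and Acadvl, for long and very long chains, overlapped and had log2 fold changes of -0.02 and 0.01. Acads, for short chains, had 0.505 and 0.229 RPKM in KO, against 0.403 and 0.575 RPKM in WT, and was too low to be tested.

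Hadha and Hadhb encode the subunits of the trifunctional protein, which carries out the last 3 reactions of a round for long chains. Hadha had 12.0 and 11.5 RPKM in KO, against 12.0 and 12.3 RPKM in WT, with a log2 fold change of -0.04 (limma, adjusted p = 0.922). Hadhb had 14.0 and 12.6 RPKM in KO, against 12.8 and 11.1 RPKM in WT, with a log2 fold change of 0.14 (limma, adjusted p = 0.730). The genes lie head to head on chromosome 5: their RefSeq (GRCm38.p6) start sites are 273 bases apart on opposite strands, and their promoter windows, from 250 bases before to 50 bases after the start, share 228 of 300 bases. The window of Hadhb is shown for this shared arrangement, at chr5:30155003-30155302 on the plus strand, with capitals for the bases that it shares with the window of Hadha.
Hadhb: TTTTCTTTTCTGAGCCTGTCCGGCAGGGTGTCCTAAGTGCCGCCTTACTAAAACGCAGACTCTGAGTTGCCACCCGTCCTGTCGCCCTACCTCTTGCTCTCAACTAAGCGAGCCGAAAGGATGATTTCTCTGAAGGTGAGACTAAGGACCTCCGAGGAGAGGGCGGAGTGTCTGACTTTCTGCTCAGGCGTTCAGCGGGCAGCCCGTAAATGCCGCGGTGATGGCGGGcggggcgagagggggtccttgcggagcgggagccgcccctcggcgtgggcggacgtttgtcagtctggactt
The ratio of Hadha to Hadhb RPKM was 0.862 and 0.914 in KO, against 0.935 and 1.11 in WT. It was lower in both KO libraries, and no test was run on it. The part of the shared window in this ratio was not tested either. The ratio of Acaa2 to Hadhb, the thiolases with different chain preferences, was 1.25 and 1.18 in KO, against 1.70 and 2.25 in WT. These genes had the lowest and the highest log2 fold change of the tested fatty acid oxidation genes. Their ratio restates those estimates, and no test was run on it.

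In total, 12 of the 13 fatty acid oxidation genes were tested, with 5 positive and 7 negative log2 fold changes and a median of -0.03. Both KO libraries lay below both WT libraries for 3 genes (Acaa2, Etfa and Acadm; background 16.3% of all tested genes) and above them for 0 (background 30%), and the groups overlapped for 9.

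The log2 fold changes of the 13 TCA cycle genes ran from -0.21 to 0.17, with 8 positive and 5 negative and a median of 0.03. Both KO libraries lay above both WT libraries for 2 of 13 genes, against the same 30%, and below them for 1, against 16.3%, with 10 overlapping. Over all 29 tested members the counts were 2 above (6.90%), 5 below (17.2%) and 22 overlapping. The share above was smaller than the background share and the share below was near it.

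Cs encodes citrate synthase, which joins acetyl-CoA to oxaloacetate and opens the cycle. It had 23.8 and 25.1 RPKM in KO, against 21.9 and 21.5 RPKM in WT, with both KO libraries higher. The log2 fold change was 0.17 with a 95% interval of -0.16 to 0.49 (limma, adjusted p = 0.647).

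The 2-oxoglutarate dehydrogenase complex is made from Ogdh, Dlst and Dld, and the last also serves pyruvate dehydrogenase. Dlst, the core transferase, had 15.3 and 14.0 RPKM in KO, against 18.1 and 16.2 RPKM in WT, with both KO libraries lower (log2 fold change -0.21, 95% interval -0.56 to 0.13; limma, adjusted p = 0.573). Ogdh had 9.87 and 10.03 RPKM in KO, against 8.35 and 10.1 RPKM in WT, so WT 27 alone was low (log2 fold change 0.11; limma, adjusted p = 0.800). Dld had 15.4 and 18.1 RPKM in KO, against 15.5 and 15.1 RPKM in WT, so KO 35 alone was high (log2 fold change 0.12; limma, adjusted p = 0.773). The subunits of this complex thus had estimates of both signs, and the ratio of Dlst to Ogdh RPKM was 1.55 and 1.40 in KO, against 2.17 and 1.61 in WT.

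Succinyl-CoA synthetase pairs the shared alpha subunit Suclg1 with Suclg2 in the GTP-forming enzyme or Sucla2 in the ATP-forming one. Suclg1 had 8.03 and 8.03 RPKM in KO, against 7.02 and 7.41 RPKM in WT, with both KO libraries higher (log2 fold change 0.14; limma, adjusted p = 0.707). Suclg2 had 8.88 and 8.95 RPKM in KO, against 8.68 and 11.1 RPKM in WT, and WT 35 alone was high (log2 fold change -0.12; limma, adjusted p = 0.784). Sucla2 overlapped with a log2 fold change of -0.06. The GTP-forming beta subunit was the more abundant in each library, the ratio of Sucla2 to Suclg2 being 0.419 and 0.486 in KO and 0.509 and 0.370 in WT.

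The NAD-dependent isocitrate dehydrogenase carries the widest spread of levels inside one enzyme. Idh3b had 28.0 and 22.7 RPKM in KO, against 28.0 and 24.4 RPKM in WT, and Idh3g had 23.7 and 21.4 RPKM in KO, against 23.1 and 20.5 RPKM in WT. Idh3a, which encodes the catalytic alpha subunit, had 2.18 and 1.99 RPKM in KO, against 2.07 and 2.05 RPKM in WT. The ratio of Idh3a to Idh3b RPKM was 0.0777 and 0.0876 in KO and 0.0740 and 0.0840 in WT. Log2 fold changes of these subunits lay between -0.05 and 0.05. Fh1 (fumarase), Mdh1 (cytosolic malate dehydrogenase) and Mdh2 overlapped between the groups and had log2 fold changes of 0.06, 0.03 and -0.04.

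Of the pyruvate entry genes, Pdha1, Pdhb and Dlat encode parts of the pyruvate dehydrogenase complex, which turns pyruvate into acetyl-CoA, and Pcx encodes pyruvate carboxylase, which turns it into oxaloacetate. Pcx had 2.20 and 2.31 RPKM in KO, against 2.60 and 3.21 RPKM in WT, with both KO libraries lower and a log2 fold change of -0.26 (95% interval -0.63 to 0.11; limma, adjusted p = 0.516). Pdha1 had 8.71 and 8.03 RPKM in KO, against 8.53 and 7.17 RPKM in WT (log2 fold change 0.09; limma, adjusted p = 0.842). Pdhb had 28.0 and 29.1 RPKM in KO, against 27.6 and 28.9 RPKM in WT (log2 fold change 0.02; limma, adjusted p = 0.972). The dehydrogenase subunits overlapped between genotypes, and Pdhb kept to a narrow range in all 4 libraries. Dlat had 5.53 and 5.71 RPKM in KO, against 5.60 and 6.11 RPKM in WT (log2 fold change -0.05; limma, adjusted p = 0.905).

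Set against the TCA cycle genes, the fatty acid oxidation genes had a lower mean level in both KO libraries than in both WT libraries, by the widest margin in KO 35. The mean log2(RPKM + 1) of the 12 tested fatty acid oxidation genes was 3.49 in library KO 27 and 3.38 in library KO 35, whereas WT 27 had a mean of 3.49 and WT 35 one of 3.50. For the 13 TCA cycle genes it was 3.67 and 3.63 in KO, against 3.64 and 3.63 in WT. Fatty acid oxidation minus TCA cycle was thus -0.179 and -0.254 in KO (-0.216 ± 0.0530, SD, n = 2), against -0.146 and -0.129 in WT (-0.137 ± 0.0123, SD, n = 2). Both KO libraries lay below both WT libraries, and 2 against 2 libraries cannot give a two-sided exact permutation p below 0.333. Without Acaa2 the difference was -0.244 and -0.310 in KO, against -0.239 and -0.237 in WT, so KO 27 then lay beside the WT libraries and KO 35 alone stood apart. Of all 30 members, 11 were lowest in KO 35 and 5 in KO 27, while 7 were lowest in each WT library. Those 11 were 6 of 13 fatty acid oxidation genes and 5 of 13 TCA cycle genes. The share of all tested genes lowest in KO 35 was not computed.

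**Figure D3:**
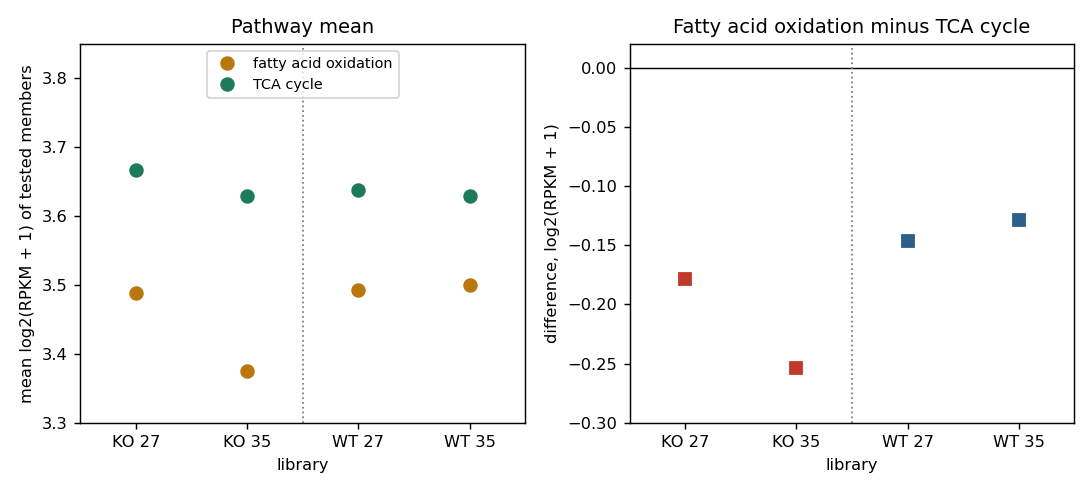
Left, mean log2(RPKM + 1) (y axis) of the tested fatty acid oxidation and TCA cycle genes in each library (x axis); right, the first mean minus the second. Each point is 1 library, the dotted line divides KO from WT, and the lowest difference is that of KO 35 at -0.254.

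In RPKM, the fatty acid oxidation genes summed to 131 and 119 in KO, against 135 and 137 in WT, and the TCA cycle genes to 191 and 182 in KO, against 190 and 180 in WT. The ratio of these sums was 0.686 and 0.655 in KO, against 0.710 and 0.760 in WT. These sums are weighted towards the genes of highest level, Acaa2 among them.

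Promoter windows of 28 of the 30 members were found in the RefSeq set (34 windows) and searched on both strands for motifs named for regulators of oxidative metabolism. Acaa2 and Idh3a had no window, so their promoters were not searched. The estrogen-related receptor element TCAAGGTCA and the direct repeat of AGGTCA with 1 base between were in 0 of 28 members, against 0.466% and 0.0481% of 27025 genes. The core GCGCATGC of the factor NRF1 was in 4 of 28 (14.3%; Acadm, Etfa, Etfdh and Ogdh), against 3.05% of all genes. The cyclic AMP response element TGACGTCA was in 2 (7.14%; Mdh2 and Ogdh), against 2.03%, and the E-box CACGTG was in 2 (Ogdh and Pcx), against 8.09%. Ogdh had several windows, and none of them held all of its motifs. Its NRF1 core was only in the most downstream windows, which start at chr11:6292308 and chr11:6292329. A match describes these letters only. Windows with the NRF1 core from a gene of each pathway are shown with the matches in capitals, for Acadm at chr3:153944594-153944893 on the minus strand (the core on its opposite strand) and for Ogdh at chr11:6292308-6292607 on the plus strand (an E-box, then the core).
Acadm: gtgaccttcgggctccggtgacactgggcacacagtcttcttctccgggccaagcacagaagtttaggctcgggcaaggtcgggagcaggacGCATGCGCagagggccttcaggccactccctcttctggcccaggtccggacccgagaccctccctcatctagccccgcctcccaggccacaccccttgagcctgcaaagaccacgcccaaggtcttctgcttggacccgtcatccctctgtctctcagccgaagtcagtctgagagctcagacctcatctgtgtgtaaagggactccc
Ogdh: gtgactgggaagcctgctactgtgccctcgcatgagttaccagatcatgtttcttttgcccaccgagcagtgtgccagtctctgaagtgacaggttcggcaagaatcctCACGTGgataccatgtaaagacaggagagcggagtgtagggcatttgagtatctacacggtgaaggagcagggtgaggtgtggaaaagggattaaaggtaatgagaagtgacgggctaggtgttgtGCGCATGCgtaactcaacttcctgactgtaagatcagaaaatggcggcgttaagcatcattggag
These 4 genes had log2 fold changes between -0.12 and 0.11, with Ogdh and Etfdh positive and Acadm and Etfa negative. Nrf1 itself had 3.13 and 3.21 RPKM in KO, against 2.87 and 2.17 RPKM in WT, both KO libraries being higher (log2 fold change 0.25; limma, adjusted p = 0.549).

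A wider list of 42 genes around fatty acid oxidation was chosen with earlier results of these data known. Not all of its genes carry out oxidation, and Acaca acts in fatty acid synthesis. The list held 32 tested genes, of which 0 passed the adjusted threshold. These 32 had a median log2 fold change of -0.18, and 28 had negative estimates, against 4132 of all 10128 tested genes. Both KO libraries lay below both WT libraries for 14 of 32 (43.8%, against 16.3% of all tested genes), and 8 of 32 reached an unadjusted p under 0.05, all lower in KO, against 5.68% of all tested genes in that direction. Of the 4 genes with the lowest p-values, 3 act in the breakdown of amino acids and of propionyl-CoA rather than in the rounds of fatty acid oxidation. Ivd, isovaleryl-CoA dehydrogenase of leucine breakdown, had 7.63 and 6.70 RPKM in KO, against 11.5 and 14.0 RPKM in WT (log2 fold change -0.75; limma, adjusted p = 0.192). Pcca and Mcee belong to propionyl-CoA breakdown. Pcca had 4.01 and 3.88 RPKM in KO, against 6.40 and 10.1 RPKM in WT (log2 fold change -0.87; limma, adjusted p = 0.205). Mcee had 6.92 and 6.09 RPKM in KO, against 9.63 and 12.2 RPKM in WT (log2 fold change -0.66; limma, adjusted p = 0.207). Eci1, the isomerase that lets unsaturated fatty acids enter the rounds of oxidation, had 5.10 and 5.03 RPKM in KO, against 7.98 and 7.28 RPKM in WT (log2 fold change -0.51; limma, adjusted p = 0.214). These 4 had no overlap between the groups. Their log2 fold changes depended on the setting: a pseudocount of 5 gave -0.55 for Pcca and -0.33 for Eci1, and Pcca was -0.58 without WT 35. When libraries were grouped by the titles, the 4 genes lay between -0.07 (Eci1) and 0.27 (Pcca), and the median of the wider list was positive (0.09). That grouping mixes KO and WT libraries as headed, so it does not gauge how firm the KO difference is.

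The wider list of 39 TCA cycle and pyruvate genes held 34 tested genes, with 0 past the adjusted threshold, 19 positive and 15 negative estimates, 7 with both KO libraries higher (20.6%, against 30% of all tested genes) and 11 with both lower (32.4%, against 16.3%). Its median log2 fold change was 0.03, which turned to -0.01 under quantile normalization and was -0.05, -0.04 and -0.08 without KO 27, WT 27 and WT 35. The lowest p-values belonged to genes that govern entry and exit rather than to the cycle. Pdk4, a kinase that inhibits pyruvate dehydrogenase, had 1.23 and 1.63 RPKM in KO, against 0.172 and 0.386 RPKM in WT (log2 fold change 0.93; limma, adjusted p = 0.180). It passed the filter on low values only through the KO libraries, and its log2 fold change was 2.06 with a pseudocount of 0.1, 0.28 with a pseudocount of 5 and 0.24 with the groups of the titles. Pdk1, a kinase of the same family, had 3.84 and 3.56 RPKM in KO, against 5.73 and 5.59 RPKM in WT (log2 fold change -0.50; limma, adjusted p = 0.213). Slc25a1, the mitochondrial citrate carrier, had 12.2 and 14.3 RPKM in KO, against 5.62 and 7.77 RPKM in WT (log2 fold change 0.90; limma, adjusted p = 0.191). Mpc1, a subunit of the mitochondrial pyruvate carrier, had 11.8 and 12.9 RPKM in KO, against 8.003 and 9.43 RPKM in WT (log2 fold change 0.46; limma, adjusted p = 0.274). Each of these 4 had groups that did not overlap, while none passed the adjusted threshold. Pdk1 was -0.29 with a pseudocount of 5, and with the groups of the titles Pdk1 was -0.06, Slc25a1 0.31 and Mpc1 0.17 on the same log2 scale.

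Of 21 regulators of oxidative metabolism, 16 were tested, 0 passed and 8 estimates were of each sign. Pparg, a nuclear receptor that drives lipid storage genes and is also made by alveolar macrophages, had 2.15 and 3.36 RPKM in KO, against 0.988 and 1.02 RPKM in WT (log2 fold change 0.89; limma, adjusted p = 0.196). The immune marker sum was higher in both KO libraries too, and its part in this difference was not tested. Ppara, the receptor that induces fatty acid oxidation genes in liver, had 1.27 and 1.13 RPKM in KO, against 1.79 and 2.26 RPKM in WT (log2 fold change -0.46; limma, adjusted p = 0.307). Creb1, a factor that binds cyclic AMP response elements, had 3.73 and 3.82 RPKM in KO, against 3.08 and 2.94 RPKM in WT (log2 fold change 0.25; limma, adjusted p = 0.472). Pparg, Ppara and Creb1 did not overlap between groups, and genes with the smallest p-values of a list tend not to. With pseudocounts of 0.1 and 5 the log2 fold change was 1.34 and 0.37 for Pparg and -0.71 and -0.18 for Ppara, and with the groups of the titles it was 0.25 for Pparg and 0.07 for Ppara. Ppargc1a, a coactivator of mitochondrial genes, had 4.22 and 4.14 RPKM in KO, against 4.05 and 5.25 RPKM in WT, with overlap (log2 fold change -0.12; limma, adjusted p = 0.791). Esrra, an estrogen-related receptor, was below 1 RPKM in all libraries, with 0.516 and 0.704 RPKM in KO, against 0.961 and 0.468 RPKM in WT.

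The authors' deposited table also holds a fold change and a p-value for each gene, and for 16 of the 30 members these did not follow the RPKM beside them. In the authors' deposited table Mdh2 had a fold change of -2.22, which stands for a KO level lower by that factor, while its RPKM ratio of KO to WT means was 0.969. For Acadm the authors' deposited table gave -2.24 beside an RPKM ratio of 0.915, and for Cs it gave 1.07 beside 1.13. Which of these patterns a gene had went with its chromosome. The offset, log2 of the deposited fold change minus log2 of the RPKM ratio, was -0.11 to 0.02 for the 13 members on chromosomes 1 and 10 to 19 and -1.34 to -0.90 for the 16 members on chromosomes 3 to 9 and X of the authors' deposited table. Idh3b, on chromosome 2, had an offset of -0.06. Emc3, on chromosome 6, had a fold change of -13.6 in the authors' deposited table beside an RPKM ratio of 0.143.

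**Figure D4:**
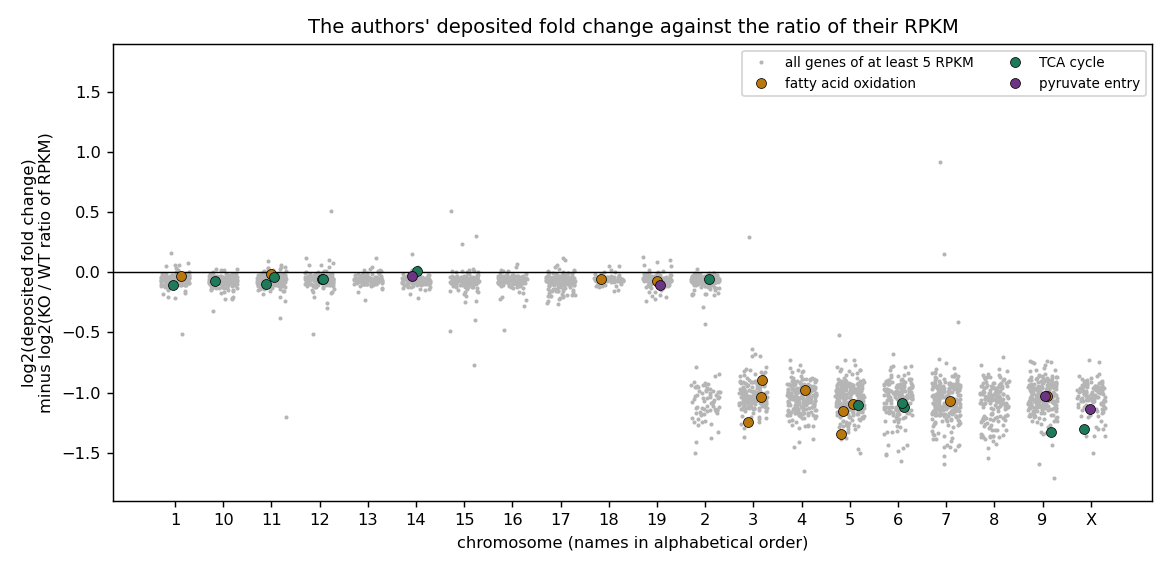
Offset of the authors' deposited fold change from the ratio of their RPKM (y axis, log2) by chromosome (x axis, names in alphabetical order), with grey points for genes of at least 5 RPKM in all libraries and coloured points for the members. The points lie near 0 on chromosomes 1 and 10 to 19, near -1.04 on chromosomes 3 to 9 and X, and at both levels on chromosome 2.

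The same held for other genes of at least 5 RPKM in all libraries. In the authors' deposited table, 4 of 1744 genes on chromosomes 1 and 10 to 19 (0.229%) and 1547 of 1551 on chromosomes 3 to 9 and X (99.7%) had an offset below -0.5, a bound chosen after the values were seen, and the median offsets were -0.06 and -1.04. On chromosome 2 of the authors' deposited table, 0 of 191 genes up to Xrn2 and 75 of 75 from Gzf1 on had an offset below it. With KO 35 divided by the sum of WT 27 and WT 35 in place of the ratio of means, the median offset on chromosomes 3 to 9 and X from the authors' deposited table was -0.06. The RPKM columns showed no such step, since the median log2 fold change on log2(RPKM + 1) was 0.06 for tested genes on chromosomes 1 and 10 to 19 and 0.05 on chromosomes 3 to 9 and X. What made the step was not tested.

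The pathways are not spread evenly over these chromosomes: 9 of 13 fatty acid oxidation genes, 5 of 13 TCA cycle genes and 2 of 4 pyruvate entry genes lie on chromosomes 3 to 9 and X. Fold changes from the authors' deposited table therefore ran from -3.37 to -1.77 for those 16 members and from -1.50 to 1.07 for the 13 on chromosomes 1 and 10 to 19. The lowest p-value of any member in the authors' deposited table was 0.0551, for Hadh on chromosome 3, and 0 members were below 0.05. The share of all genes below 0.05 there was not computed, so this count does not set the members apart. The fold changes and p-values given for the members above come from the RPKM columns and do not carry the step.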

How the data were processed

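RNA from sorted EpCAM-positive lung cells was sequenced in 4 libraries, 2 KO and 2 WT, grouped by column heading because 2 sample titles conflict with the headings. The authors deposited RPKM per gene and library, not log transformed, per the file headers; RPKM and the related FPKM cannot be told apart there. The authors also deposited a p-value, not marked as adjusted, and a signed fold change (a score equal to the ratio, or minus its inverse below 1), both used only where the authors' deposited table is named. Upstream, the mm10 genome, DESeq (no version), Cufflinks 2.0.2, TopHat2 2.0.8 and Bowtie2 2.1.0 appear in the submitters' processing notes without their roles. Not given in the sources used here were the annotation, read filters, use of strand and read totals, so precision appears as the spread between libraries; among genes of the lowest RPKM, where the value of a single read is larger in a shallower library, the most frequent ratio to KO 27 was 1.06 in KO 35, 1.02 in WT 27 and 0.966 in WT 35.

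The 10128 genes that reached 1 RPKM in 2 or more libraries were tested on log2(RPKM + 1), so with a pseudocount of 1, by limma 3.58.1 (R 4.3.3) and its trended prior variance. Two-sided p-values were adjusted by Benjamini-Hochberg across all of these genes and called below 0.05. The test was also tried on simulated data. Log2 fold changes on this scale understate those of genes of low RPKM. The members and lists were chosen with earlier results of these data known. Named with values in each library were the 6 members of each pathway with the smallest p, the pyruvate entry genes, Cpt1a, Cpt2, Cs and Ogdh, up to 4 genes of each other list with the smallest p, and 4 regulators (Ppara, Pparg, Ppargc1a and Esrra); other genes so named (the remaining members, Xrn2 and Gzf1) were chosen after their values were seen. Alternatives were another normalization, filter, pseudocount or prior, a block by heading number, the groups of the titles (which mix KO and WT as headed), and each library left out. Promoter sequences and gene positions are from RefSeq, GRCm38.p6. Python 3.11.15 with pandas 2.3.3, numpy 2.4.6 and matplotlib 3.10.9 was used for the rest.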

Additional observations from a re-analysis of the deposited data

How the results depend on the processing

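Under the 12 other settings 0 members passed the adjusted threshold. Over the 11 settings with libraries grouped by heading, the lowest adjusted p of any member was 0.193 (limma), the largest size of a log2 fold change was 0.61, and 11 of the 29 tested members kept their sign wherever they were tested, Acaa2 among them (-0.61 to -0.40). With the groups of the titles, which mix KO and WT libraries as headed, the lowest adjusted p of a member was 0.998 (limma). There 12 members had the opposite sign, so that 8 kept their sign wherever they were tested under all 12 settings, and Acaa2 was -0.02. A small estimate or a changed sign in that grouping does not gauge the KO difference. Over all genes 7 passed, against 2 with no filter, 4 with a filter of 10 RPKM, 4 with a pseudocount of 5, 4 with the groups of the titles, and 9 to 63 when a library was left out (13 without KO 27, 9 without KO 35, 63 without WT 27 and 35 without WT 35), where the lone library is assumed to vary like the other group. With a replicate block by the heading numbers, 9 genes and 0 members passed and no member's call changed. Deviations of same-numbered libraries from their group means correlated at 0.148. With 2 libraries in each group, both heading numbers must give the same value, so it is a single correlation. The titles' own replicate numbers gave no block, since the columns carry none of them.

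The median log2 fold change of the TCA cycle genes was -0.024 under quantile normalization, and that of the pyruvate entry genes was -0.088 under quantile normalization, 0.016 with the filter of 10 RPKM (1 gene) and 0.064 with the groups of the titles. The difference of medians, fatty acid oxidation minus TCA cycle, was -0.066 and moved to -0.13 with the filter of 10 RPKM. Leaving out a library gave medians of -0.12 (without WT 27) to 0.0031 (without KO 35) for fatty acid oxidation, -0.020 to 0.057 for the TCA cycle and -0.058 to 0.0015 for pyruvate entry, and a difference of -0.15 to -0.054. Quantile normalization turned 7 estimates negative: Acadvl -0.049, Etfdh -0.040, Idh3a -0.016, Idh3g -0.032, Fh1 -0.0024, Mdh1 -0.024 and Pdhb -0.070. Leaving out a library turned the sign of 18 estimates, with ranges of Cpt1a -0.14 to 0.36, Cpt2 -0.0065 to 0.27, Acadl -0.24 to 0.19, Acadvl -0.051 to 0.076, Etfb -0.29 to 0.018, Etfdh -0.15 to 0.19, Idh3a -0.033 to 0.054, Idh3b -0.19 to 0.096, Idh3g -0.034 to 0.13, Ogdh -0.017 to 0.23, Suclg2 -0.28 to 0.035, Sucla2 -0.15 to 0.028, Fh1 -0.033 to 0.15, Mdh1 -0.057 to 0.12, Mdh2 -0.17 to 0.090, Pdha1 -0.025 to 0.20, Pdhb -0.015 to 0.046 and Dlat -0.10 to 0.0035. The cause of these changes of sign was not tested.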

Other observations

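Other genes of the wider lists with an unadjusted p under 0.05, named after their values were seen, were Idh2, Sdhb, Pdp2 and Mpc2 of the TCA cycle and pyruvate list and Acsl1, Acaca, Acat1 and Acot13 of the fatty acid list, each lower in both KO libraries. Acaca acts in fatty acid synthesis, so its lower level is not that of an oxidation enzyme. Idh2, the NADP-dependent mitochondrial isocitrate dehydrogenase, had 11.0 and 11.2 RPKM in KO, against 15.8 and 14.3 RPKM in WT (log2 fold change -0.40; limma, adjusted p = 0.296). Sdhb, the iron-sulfur subunit of succinate dehydrogenase, had 7.47 and 6.91 RPKM in KO, against 9.07 and 10.3 RPKM in WT (log2 fold change -0.38; limma, adjusted p = 0.327). Mpc2, the partner of Mpc1 in the pyruvate carrier, had 5.88 and 8.24 RPKM in KO, against 9.47 and 10.6 RPKM in WT (log2 fold change -0.47; limma, adjusted p = 0.353), so the estimates of the carrier's subunits were of opposite sign. Acsl1, which activates long fatty acids to their CoA esters, had 4.44 and 3.76 RPKM in KO, against 6.02 and 5.67 RPKM in WT (log2 fold change -0.43; limma, adjusted p = 0.296). The ratio of Pdk4 to Pdk1 RPKM was 0.320 and 0.459 in KO, against 0.0300 and 0.0690 in WT, and no test was run on it. Both genes were named for their low p-values, with estimates of opposite sign, so the ratio restates those estimates. Pdk4 was below 1 RPKM in both WT libraries.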
